A study of Canis lupus familiaris with 14 samples.

Results

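The bone libraries of 7 dogs with osteosarcoma differed widely in the transcript of MEPE (ENSCAFG00000047433), a matrix protein made by osteocytes, and the bones richest and poorest in it are compared here. The groups were chosen by MEPE itself: the 7 bone libraries were ranked by CPM of MEPE (its counts as a scaled share of all counts in the library), and the 3 highest were set against the 3 lowest. The comparison takes in 6 of the 7 bone libraries and 6 of the 14 libraries of the series. The study assigned no dog to such a group, so the 3 dogs of a group share a level of MEPE and no treatment.

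Polyadenylated RNA was sequenced from a normal bone, the second phalanx, and from the osteosarcoma of the same dog, in 1 library each. All 7 dogs had a limb amputated for the tumor, and the phalanx came from the amputated limb. The values are read counts on Ensembl genes. The MEPE-high dogs were F (Golden Retriever, right distal radius), E (Great Pyranees, left distal radius) and D (Greyhound, left proximal humerus). The MEPE-low dogs were G (Greyhound, right distal tibia), B (Rottweiler, left distal femur) and A (Golden Retriever, left distal radius), and dog C (Doberman Pinscher, left distal radius) fell between the groups. The tumors of the 3 MEPE-high dogs were thus all in the forelimb, while dogs G and B had them in the hindlimb, so limb and MEPE group cannot be told apart in those dogs. Tissue was taken before any chemotherapy. Each group holds 1 Golden Retriever, 1 Greyhound and 1 spayed female, dogs E and G, and the other dogs were castrated males. Ages at amputation, as the study gives them, overlapped between the groups, and the part of age in the comparison was not tested. By the study's integrity scores, the bone RNA of dog B was the most degraded, and the part of RNA quality in the comparison was not tested.

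Osteocytes are the most numerous cells of bone. They derive from osteoblasts that become walled into the mineral they have laid down, and they stay connected with each other and with the bone surface through fine canals. They are the main source of sclerostin, the product of SOST, which binds the Wnt co-receptors LRP5 and LRP6 and slows bone formation. Together with DMP1 and MEPE, which belong to a family of acidic proteins that bind mineral, and the endopeptidase PHEX, they take part in the control of mineralization and, through the hormone FGF23, of phosphate.

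MEPE was at 1767, 1323 and 506 CPM in the bones of dogs F, E and D, at 225 CPM in that of dog C, and at 139, 22.1 and 10.8 CPM in those of dogs G, B and A. The series fell without a wide gap from dog D to dog C and dog G, so the groups are 2 ends of a range and not separate clusters. These values set the groups and are given as a description. MEPE was left out of every test in bone. Library totals were 22564544 to 34479429 counts in bone and the group means differed by 3968091 counts (exact permutation test, two-sided p = 0.4, where 0.1 is the smallest p that 3 against 3 allows). In the bone of dog E, ENSCAFG00000017018 alone took 29.46% of all counts, against 1.298% to 11.62% in the other 6 bones, and this gene and all others without a symbol were not identified further. Levels below are therefore CPM after scaling by TMM, which sets the bulk of genes equal between libraries, and are called normalized CPM.

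The label osteocyte-rich can be held against the remaining osteocyte markers. Of a list of 14 osteocyte genes, 10 could be paired with an identifier, and the 9 besides MEPE were all tested. The transcripts of SOST, DMP1 and PHEX were each higher in all 3 MEPE-high bones than in any MEPE-low bone, as were 4.25% of all genes tested. FGF23, IRX5, RELN, NPY, KCNK2 and PTPRZ1 overlapped between the groups. By edgeR, none of the 9 passed the threshold on the false discovery rate (FDR). With the DESeq2 Wald test the adjusted p was 0.0156 for SOST, 0.0488 for DMP1 and 1.82e-06 for PHEX. Since 6 of the 9 overlapped, the groups are called by the marker that formed them, MEPE-high and MEPE-low.

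Across all genes with a mean of at least 1 CPM in bone, the edgeR quasi-likelihood test called 0 of 14239 genes (0%) at an FDR under 0.05 and a fold change over 2. The smallest FDR was 0.106. At an unadjusted p under 0.05 there were 567 genes (3.98%), 194 of them higher (1.36%) and 373 lower (2.62%) in MEPE-high bone. Leaving out a library moved this number, to 347 without dog B, 362 without dog F and 897 without dog G. The DESeq2 Wald test on the same libraries called 57 genes (0.4%), 18 higher and 39 lower, and limma-voom called 0, with 438 genes at an unadjusted p under 0.05. Unadjusted p-values under 0.05 numbered 1076 with MEPE as a numeric term over all 7 bones, 223 with all 12 libraries in one fit and 1246 of 26037 genes without a filter. The differences described below are read as levels in these 6 bones.

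Groups of 3 that do not overlap were counted as a second description. On normalized CPM, 605 genes (4.25%) were higher in all 3 MEPE-high bones than in any MEPE-low bone, and 566 (3.97%) were lower in all 3. Of the genes of both kinds together, 51.7% were higher. With CPM by library totals only, 115 were higher and 660 lower, so that 14.8% were higher. The bone of dog E had a TMM factor of 0.632, which raises all of its values, against 1.02 to 1.31 in the other bones. Each gene given below as not overlapping in bone was compared on both scales.

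**Figure D1:**
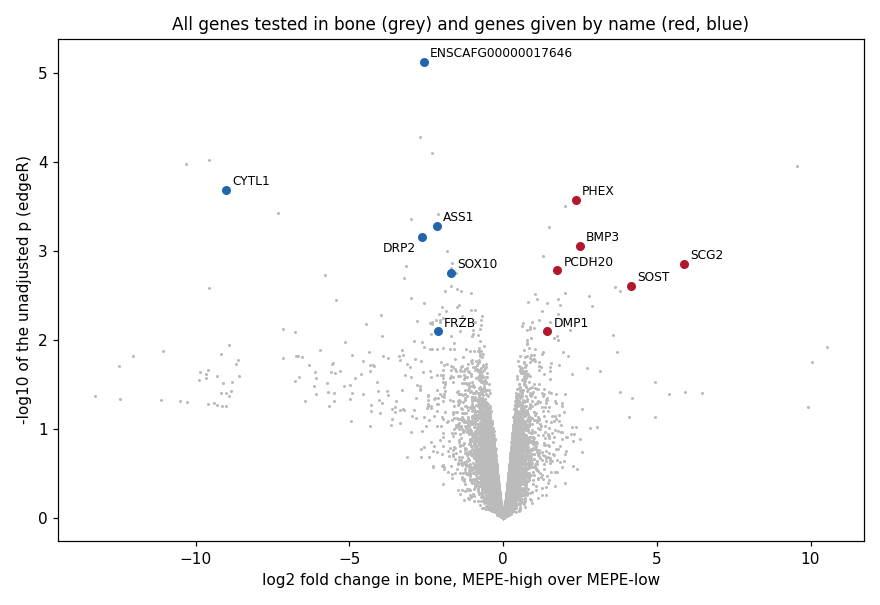
Every gene tested in bone is a grey point, with the log2 fold change of MEPE-high over MEPE-low bone on the horizontal axis and −log10 of the unadjusted p of the edgeR test on the vertical axis; red and blue points are genes given by name. ENSCAFG00000017646 has the smallest p, CYTL1 lies at the far left with a log2 fold change of -9.00, and PHEX is the highest of the named genes on the right.

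SOST (ENSCAFG00000028730) was at 1194, 1812 and 348 normalized CPM in dogs F, E and D and at 136, 26.7 and 23.4 normalized CPM in dogs G, B and A. Dog C, at 486 normalized CPM, lay above dog D of the MEPE-high group. The mean was 1118 ± 735 in MEPE-high and 62.1 ± 64.2 in MEPE-low bone (SD, n = 3 each), and the groups did not overlap on either scale. The log2 fold change was 4.16 with a standard error of 0.92 (edgeR FDR = 0.9997). Dog G was the nearest of the MEPE-low bones to the other group, and without it the log2 fold change was 5.48. In a bulk library, fewer osteocytes and less RNA per osteocyte cannot be told apart, which holds for every transcript described here.

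DMP1 (ENSCAFG00000009548), which helps to nucleate mineral, was spread less widely. It was at 1109, 741 and 406 normalized CPM in dogs F, E and D, at 460 in dog C, and at 350, 262 and 222 in dogs G, B and A. Dog D and dog G, the neighbors across the boundary, differed by less than the spread within either group. The log2 fold change was 1.44 ± 0.40 (SE; edgeR FDR = 0.9997), and it was 1.04 without dog F.

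PHEX (ENSCAFG00000013325) had the smallest p-value of all genes with a symbol that were higher in MEPE-high bone. Its levels were 36.3, 63.1 and 51.4 normalized CPM in dogs F, E and D and 13.4, 5.72 and 10.1 in dogs G, B and A. Dog C, at 14.9 normalized CPM, lay next to dog G, unlike its place for SOST and DMP1. The mean was 50.3 ± 13.4 against 9.76 ± 3.86 normalized CPM (SD, n = 3), a log2 fold change of 2.36 (SE 0.36, edgeR FDR = 0.469). It stayed between 2.09 and 2.66 with each library left out.

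The other markers of the list did not divide the bones in this way. FGF23 (ENSCAFG00000015365), the hormone that lowers blood phosphate, was at 1.47, 1.70 and 4.15 normalized CPM in dogs F, E and D and at 0.532, 2.79 and 1.84 in dogs G, B and A. It rested on 19 to 162 counts per library. The homeobox gene IRX5 ranged from 19.1 to 54.5 in MEPE-high and from 10.4 to 31.8 in MEPE-low bone, the potassium channel gene KCNK2 from 6.76 to 16.1 and from 7.48 to 10.5. RELN, which encodes the secreted glycoprotein reelin, was highest in dog D at 86.4 normalized CPM and otherwise between 30.5 and 54.4. NPY, the gene of neuropeptide Y, was highest in dog E at 89.8 and otherwise between 15.1 and 38.4. PTPRZ1, a receptor phosphatase gene, had a log2 fold change of -0.25 (SE 0.57) and overlapped on normalized CPM, but it was lower in all 3 MEPE-high bones with library totals only. Over the 9 tested genes, 8 log2 fold changes were above 0 and 3 had an unadjusted p under 0.05, all higher, against 1.36% of all genes that were higher at that p. The median log2 fold change was 0.54, against 0.01 over all 14239 genes, of which 50.8% were above 0. The list holds genes known to be made by the same cells as the marker used for the ranking.

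**Figure D2:**
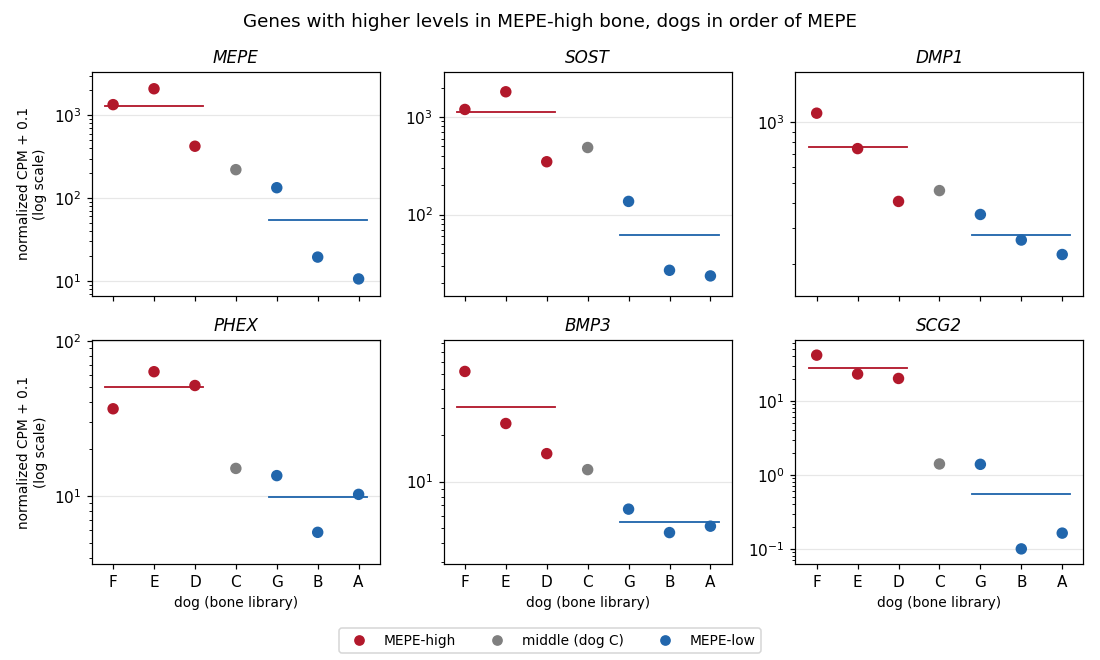
Each panel gives the level of 1 gene in the 7 bone libraries as normalized CPM plus 0.1 on a log axis, with the dogs in the order of their MEPE (F, E, D, C, G, B, A); horizontal lines are group means (n = 3). All 6 genes lie higher in dogs F, E and D than in dogs G, B and A. MEPE formed the groups and the order of the dogs by its CPM on library totals. Its panel shows normalized CPM, where dog E lies above dog F.

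Among the remaining genes with a symbol, those with the smallest p-values on the higher side were BMP3, SCG2 and PCDH20. BMP3 (ENSCAFG00000008889), a member of the bone morphogenetic protein family that restrains bone formation, followed the order of MEPE closely: 51.9, 23.8 and 15.1 normalized CPM in dogs F, E and D, 11.9 in dog C, and 6.52, 4.56 and 5.03 in dogs G, B and A. Its log2 fold change was 2.49 (SE 0.46, edgeR FDR = 0.777). SCG2 (ENSCAFG00000016186), which encodes the secretory granule protein secretogranin II, separated the groups more sharply than BMP3 and PCDH20. It had 1745, 500 and 780 counts in dogs F, E and D, 39 counts in dog C, and 46, 0 and 2 counts in dogs G, B and A. On the normalized scale this was 20.0 to 41.3 CPM in MEPE-high bone and 0 to 1.29 in MEPE-low bone. The fitted log2 fold change of 5.88 (SE 1.18, edgeR FDR = 0.939) depended on dog G and was 9.52 without it. PCDH20 (ENSCAFG00000004935), a protocadherin gene, was low throughout, at 4.82 to 7.40 normalized CPM in MEPE-high and 1.24 to 2.13 in MEPE-low bone (log2 fold change 1.76, SE 0.36, edgeR FDR = 0.966). SOST and PHEX made up the other two of the 5 genes. These 5 did not overlap between the groups on either scale.

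The pattern of each gene over the 7 bones was also compared with that of MEPE, as Pearson's r of log2(CPM + 1), a description over 7 libraries that share depth and the composition of each library with MEPE. SOST was the most alike (r = 0.98). It was followed by FGF1 (0.97), a fibroblast growth factor gene, MYOZ2 (0.95), which encodes a protein of the muscle Z-disc, FOLH1B (0.95), SPATA13 (0.94), a guanine nucleotide exchange factor gene, and RPGRIP1L (0.93), a gene of the base of the primary cilium. MYOZ2 (ENSCAFG00000012432) was at 8.53, 14.4 and 3.25 normalized CPM in dogs F, E and D, at 2.41 in dog C, and at 1.01, 0.928 and 0.127 in dogs G, B and A, so that dog A had 4 counts and dog F had 360. FGF1 ranged from 3.28 to 5.82 normalized CPM in MEPE-high and from 1.36 to 2.60 in MEPE-low bone. FOLH1B and RPGRIP1L overlapped between the groups on normalized CPM, where dog E was highest for both, and FOLH1B was higher without overlap with library totals only. Among the genes least like MEPE were NMRAL1 (r = -0.98), a sensor of NADPH, ARHGAP4 (-0.96) and LOC612475 (-0.94). All 3 overlapped between the groups on normalized CPM, and NMRAL1 and ARHGAP4 were separated with library totals only.

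Mineral and osteoblast genes mark the cells that osteocytes come from. Osteopontin (SPP1) was at 2960, 2411 and 2666 normalized CPM in dogs F, E and D and at 1489, 1937 and 3626 in dogs G, B and A, so dog A exceeded all MEPE-high bones. Osteocalcin (BGLAP) stood at 2466 normalized CPM in dog E and at 200 to 866 in the other 6 bones. Of the 5 mineral genes tested, which also included the pyrophosphate transporter gene ANKH and the phosphate transporter genes SLC20A1 and SLC20A2, 0 had an unadjusted p under 0.05 and all 5 overlapped, with a median log2 fold change of 0.27. Of 8 osteoblast genes, 2 had an unadjusted p under 0.05, BMP3 and MMP13, both higher in MEPE-high bone, against 1.36% of all genes that were higher at that p. MMP13, the collagenase gene of osteoblasts and hypertrophic chondrocytes, was at 656, 878 and 939 normalized CPM in dogs F, E and D and at 457, 363 and 543 in dogs G, B and A (log2 fold change 0.87, SE 0.28, edgeR FDR = 0.9997), but the groups overlapped with library totals only. The median log2 fold change of the 8 genes was 0.67, with 5 above and 3 below 0.

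Osteoclasts resorb bone, and dog A, of the MEPE-low group, had the highest levels of their main genes. MMP9, CTSK and ACP5, which encode gelatinase B, cathepsin K and tartrate-resistant acid phosphatase, were at 9171, 4042 and 4870 normalized CPM in the bone of dog A. In the other 6 bones they ranged from 1812 to 4008, from 1137 to 2011 and from 1011 to 1986. The summed level of the 8 paired osteoclast genes was 5875 to 7278 normalized CPM in MEPE-high bone and 4168 to 18454 in MEPE-low bone. Of these 8, 0 had an unadjusted p under 0.05, against 3.98% of all genes, and all overlapped, where 4.25% of all genes were higher and 3.97% lower without overlap (median log2 fold change -0.31).

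In the Wnt pathway, which sclerostin restrains, 12 of 34 listed genes were tested and SOST was the only one with a higher level at an unadjusted p under 0.05. FRZB (ENSCAFG00000024988), the gene of a secreted frizzled-related Wnt antagonist abundant in cartilage, was the only one with a lower level at that p, against 1.36% of all genes that were higher and 2.62% that were lower. It was at 11.7, 10.2 and 37.2 normalized CPM in dogs F, E and D and at 46.8, 102 and 114 in dogs G, B and A, with dog C at 118. Its log2 fold change was -2.12 (SE 0.59, edgeR FDR = 0.9997). Without dog D, the highest of the MEPE-high bones, it was -2.999. FRZB was singled out after its values were seen. The Wnt antagonist gene WIF1 and the sclerostin receptor gene LRP4 overlapped on normalized CPM, with log2 fold changes of -0.04 (SE 0.44) and 0.75 (SE 0.37), while LRP4 was higher without overlap with library totals only. The list as a whole was balanced, with 6 log2 fold changes above and 6 below 0 and a median of 0.05. In the list of phosphate and vitamin D genes, PHEX was the only one of 4 tested genes with an unadjusted p under 0.05, and FGFR1 and PTH1R had log2 fold changes of 0.12 (SE 0.36) and -0.16 (SE 0.46).

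**Figure D3:**
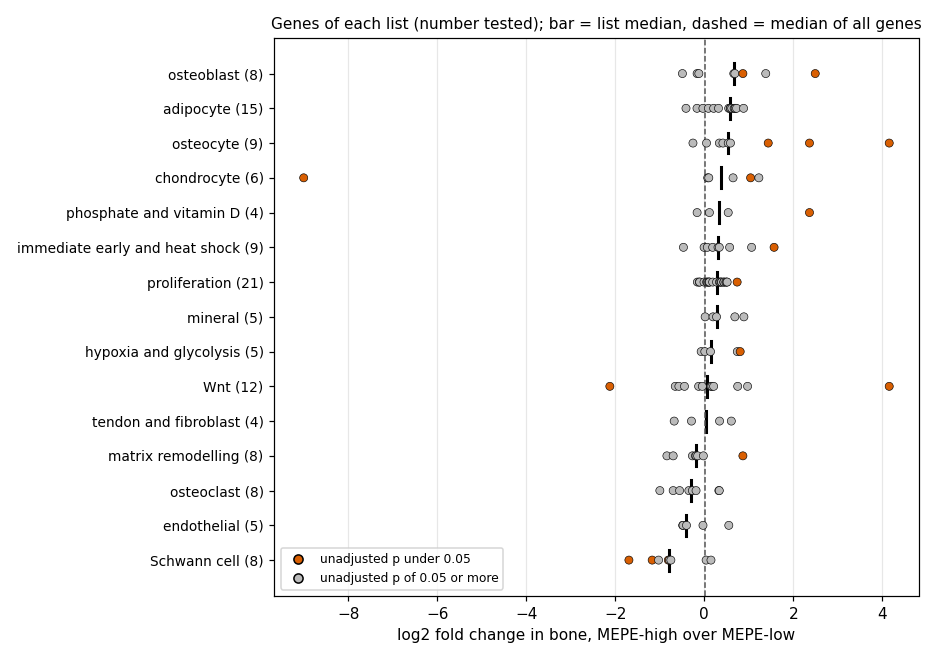
Each point is a tested gene of a list, placed by its log2 fold change in MEPE-high over MEPE-low bone, with orange for an unadjusted p under 0.05; black bars are list medians, the dashed line is the median of all 14239 genes, and lists with at least 4 tested genes are drawn. The Schwann cell list has the lowest median, -0.80, with 3 of its 8 genes in orange, and CYTL1 of the chondrocyte list lies far to the left of all others.

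On the lower side, CYTL1 (ENSCAFG00000015706), a secreted protein gene of cartilage, had the smallest p-value among genes with a symbol. It had 19, 0 and 3 counts in the bones of dogs F, E and D, but 6503 in dog C and 465, 3715 and 5051 in dogs G, B and A. In normalized CPM this was 0 to 0.450 against 13.0 to 160, and the 217 of dog C was above all of them. The fitted log2 fold change was -9.00 (SE 1.33, edgeR FDR = 0.414). Its size rests on the few counts of dogs F and D, and it lay between -10.99 and -8.56 with each library left out. With MEPE as a numeric term over all 7 bones, dog C included, the change over the gap between the group means of MEPE was -5.02 (edgeR FDR = 0.708).

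ASS1 (ENSCAFG00000019945) encodes argininosuccinate synthase, an enzyme of arginine synthesis. It was at 9.69, 4.40 and 6.09 normalized CPM in dogs F, E and D, at 30.2 in dog C, and at 41.3, 24.6 and 25.3 in dogs G, B and A. The means of 6.73 ± 2.70 and 30.4 ± 9.47 normalized CPM (SD, n = 3) were apart by more than either spread, with a log2 fold change of -2.16 (SE 0.37, edgeR FDR = 0.548). The gene with the smallest p-value of all, ENSCAFG00000017646, has no symbol here and was chosen after its values were seen. It was at 26.6, 23.3 and 21.8 normalized CPM in dogs F, E and D, at 253 in dog C, and at 122.8, 128 and 179 in dogs G, B and A. The log2 fold change was -2.58 (SE 0.23, edgeR FDR = 0.106).

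DRP2 and SOX10, the next genes with a symbol by their p-values, are known from Schwann cells, the glia that wrap peripheral nerve fibers. SOX10 (ENSCAFG00000001436), a transcription factor gene required for this lineage, was at 2.49, 2.94 and 2.23 normalized CPM in dogs F, E and D, at 6.95 in dog C, and at 4.98, 11.3 and 8.61 in dogs G, B and A (log2 fold change -1.69, SE 0.35, edgeR FDR = 0.966). DRP2 (ENSCAFG00000017618), a dystrophin-related protein gene of the Schwann cell membrane, had 6 to 16 counts in MEPE-high and 53 to 71 counts in MEPE-low bone (log2 fold change -2.63, SE 0.47, edgeR FDR = 0.658). Dogs B and A were the highest of the 7 for SOX10, and dog G was the MEPE-low bone nearest to the MEPE-high bones.

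Of 13 genes of the Schwann cell list, which does not hold DRP2, 8 were tested. An unadjusted p under 0.05 was found for 3 of them, SOX10, SCN7A and MBP, all lower in MEPE-high bone, against 2.62% of all genes. The median log2 fold change was -0.80, and 6 of the 8 were below 0. SCN7A, a sodium channel family gene, was at 3.58, 3.03 and 6.53 normalized CPM in dogs F, E and D against 5.46, 12.1 and 12.5 in dogs G, B and A (log2 fold change -1.17, SE 0.44), and the groups overlapped. MBP, a myelin gene, shows how near this lay to the threshold: 13.2, 9.998 and 13.0 normalized CPM in dogs F, E and D against 11.8, 23.7 and 28.6 in dogs G, B and A gave a log2 fold change of -0.81 (SE 0.35), and these groups overlapped too. PMP22 and NCAM1, which many other cells also make, had log2 fold changes of 0.15 (SE 0.23) and 0.04 (SE 0.39). The summed level of the 8 genes was 336 to 476 normalized CPM in MEPE-high and 297 to 714 in MEPE-low bone. The part of nerve cells in the comparison was not tested.

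Of 6 tested cartilage genes, 5 had log2 fold changes above 0 and CYTL1 alone was below. CYTL1 was lower and COL9A1, a collagen gene of cartilage, was higher at an unadjusted p under 0.05 (log2 fold change 1.04, SE 0.40), and the median was 0.37. Over all genes 50.8% were above 0, and 1.36% were higher and 2.62% lower at that p. CHAD, the gene of the cartilage matrix protein chondroadherin, was at 5237 normalized CPM in dog E and 111 in dog D, both MEPE-high, and between 668 and 969 in MEPE-low bone. Outside the list, CLEC3A and ECRG4 were picked after their values were seen, because both resembled CYTL1. CLEC3A, a lectin gene of cartilage, was at 4.50, 0.413 and 0.461 normalized CPM in dogs F, E and D, at 75.6 in dog C, and at 8.18, 13.0 and 32.5 in dogs G, B and A. ECRG4, the gene of a secreted peptide precursor, was at 54.4, 17.5 and 58.4, at 482 in dog C, and at 90.8, 219 and 352. For these genes and FRZB, dog C was the highest of the 7 bones.

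**Figure D4:**
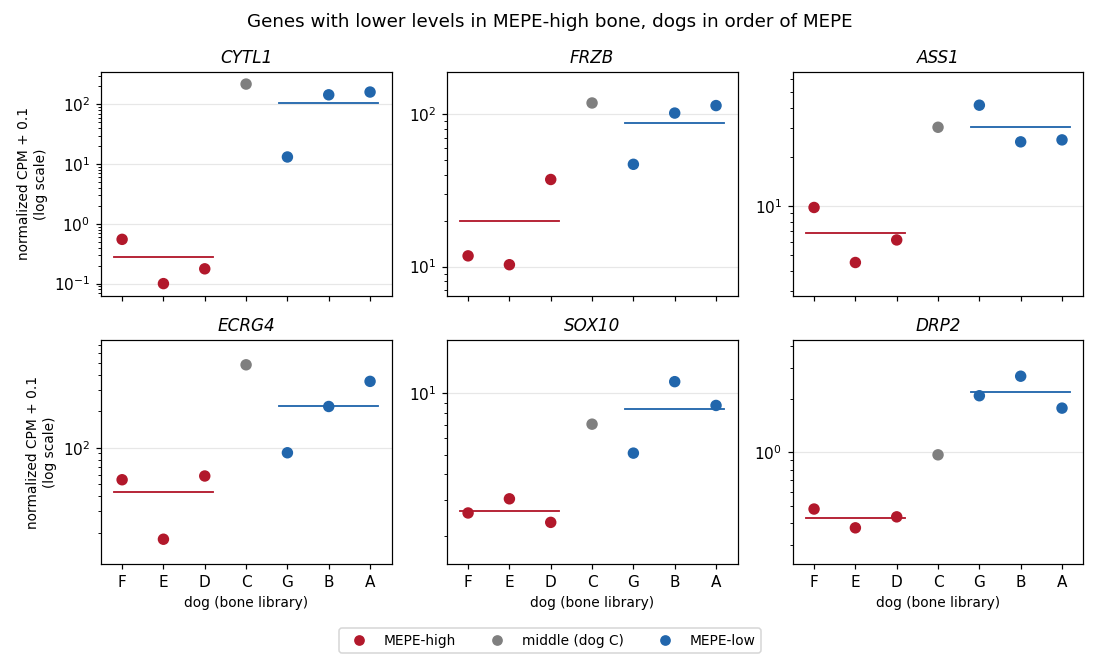
Levels of 6 genes in the 7 bone libraries, as normalized CPM plus 0.1 on a log axis, with dogs in the order of their MEPE; horizontal lines are group means (n = 3). Dogs F, E and D lie lowest in every panel, and dog C lies with or above dogs G, B and A for CYTL1, FRZB, ASS1, ECRG4 and SOX10 and between the groups for DRP2.

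The bone of dog C took no part in forming either group, so its levels show how the separated genes continue across the range of MEPE. Among the 55 genes that were higher in MEPE-high bone without overlap and by more than 2-fold in the means, dog C lay at or above the lowest MEPE-high bone for 21, between the groups for 19 and at or below the highest MEPE-low bone for 15. Among the 182 genes that were lower in this way, it lay with the MEPE-low bones for 131 (72.0%), between the groups for 28 and with the MEPE-high bones for 23. Dog C was thus placed evenly for the genes that were higher and mostly with the MEPE-low bones for those that were lower.

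By the study's account, marrow and cells outside the mineralized matrix had been removed from the bone specimens. Markers of such cells were compared as well. Adipocyte genes were highest in dog D. Their sum over 15 genes was 4419 normalized CPM in dog D, 888 and 1034 in dogs E and F, and 1318 to 2056 in MEPE-low bone. The highest for FABP4, SCD and LPL, which handle fatty acids, was dog D as well, at 1546, 574 and 535 normalized CPM. Of the 15 genes, 0 had an unadjusted p under 0.05, against 3.98% of all genes, and 12 log2 fold changes were above 0, against 50.8% of all genes. Endothelial genes summed to 509 to 834 in MEPE-high and 500 to 807 in MEPE-low bone, and mural genes, of the cells around vessels, to 428 to 611 and 529 to 740. Tendon and fibroblast genes summed to 2094 to 2564 and 1294 to 2672. These sums overlapped between the groups.

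Few markers of blood and marrow cells could be paired with an identifier. They were 2 of 13 red cell, 1 of 15 neutrophil, 1 of 13 macrophage, 2 of 12 T and NK cell and 0 of 9 B and plasma cell genes. Those paired were at most at 8.29 normalized CPM, and the levels of the unpaired markers are not known here. The red cell genes HEMGN and EPB42 lay between 0.665 and 1.82 normalized CPM in all 7 bones, and the neutrophil granule gene MPO between 0.154 and 6.30. CD5L, the only macrophage gene paired, was at 0 to 1.24 normalized CPM. CCL5, of T cells, lay without overlap at 3.53 to 5.07 normalized CPM in MEPE-high and 6.33 to 8.29 in MEPE-low bone (edgeR FDR = 0.9997). The muscle gene ACTA1 was at 0.805, 0 and 13.7 in dogs F, E and D and at 15.5 to 22.8 in MEPE-low bone. The 11 keratinocyte genes had no paired identifier. The part of these cells in the comparison was not tested.

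Genes that respond to handling, oxygen and growth were compared in the same way, and their counts stand beside the 50.8% of all genes with a log2 fold change above 0 and the 1.36% that were higher at an unadjusted p under 0.05. The immediate early and heat shock genes summed to 796 normalized CPM in dog E and to 1355 to 3318 in the other 6 bones. FOS and FOSB, which are induced within minutes of a stimulus, were at 42.9 and 5.27 in dog E and at 224 to 974 and 32.8 to 492 elsewhere. Of the 9 genes of this list, 7 had log2 fold changes above 0, with a median of 0.31. EGR3, an early growth response transcription factor gene, alone had an unadjusted p under 0.05, at 11.3, 4.36 and 6.73 normalized CPM in dogs F, E and D and at 4.12, 1.43 and 2.03 in dogs G, B and A (log2 fold change 1.57, SE 0.52, edgeR FDR = 0.9997). EGR3 overlapped between the groups with library totals only. IER2, another immediate early gene, was at 192.5, 93.3 and 166 in dogs F, E and D against 226, 212 and 193.2 in dogs G, B and A, and it too overlapped with library totals only. Of 21 proliferation genes, 17 had log2 fold changes above 0, with a median of 0.28. The kinetochore checkpoint gene BUB1B alone had an unadjusted p under 0.05, at 5.20 to 7.43 normalized CPM in MEPE-high and 3.40 to 4.72 in MEPE-low bone. Of 5 hypoxia and glycolysis genes, ADM, the gene of the vasodilator adrenomedullin, was at 42.1 to 58.3 against 21.0 to 40.8 normalized CPM (edgeR FDR = 0.9997). BUB1B and ADM overlapped between the groups with library totals only. For matrix remodelling, MMP13 was the only one of 8 genes with an unadjusted p under 0.05. It was also the only one with a log2 fold change above 0, while 7 were below 0, and the median was -0.19. The mechanosensitive channel gene PIEZO2 had a log2 fold change of 0.04 (SE 0.54).

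Genes of limb identity were compared as well, TBX5, a transcription factor gene of the forelimb, and PITX1, one of the hindlimb. In bone TBX5 was at 16.6, 9.22 and 14.4 normalized CPM in dogs F, E and D and at 12.04, 7.39 and 22.9 in dogs G, B and A. PITX1 had 2, 2 and 0 counts in dogs F, E and D, 11 in dog C and 13, 47 and 12 in dogs G, B and A, too few to be among the genes tested. Dog B, with a hindlimb tumor, had the most PITX1 and the least TBX5 of the 7 bones. Dog G, also with a hindlimb tumor, had 0.364 normalized CPM of PITX1, near the 0.368 of dog C and the 0.380 of dog A. Its TBX5 was above that of dog E. By these levels the bone of dog G was not told apart from forelimb bone. Dog A, with a forelimb tumor, was the MEPE-low bone that shared the limb of the other group, and it had 23.4 normalized CPM of SOST and 160 of CYTL1. The part of the limb in the comparison was not tested.

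The tumors of the same dogs were not used to form the groups, and there MEPE can be compared. It was at 131 normalized CPM in the tumor of dog E and at 0.194 to 2.05 in the other 6 tumors. SOST likewise was at 129 in the tumor of dog E, 10.96 in that of dog C and at most 0.767 in the other 5. DMP1 was at 43.3, 136 and 101 normalized CPM in the tumors of dogs F, E and D, at 431 in that of dog C and at 2.23, 2.22 and 21.9 in those of dogs G, B and A. The tumors of dogs whose bone was MEPE-high thus had more DMP1 without overlap (log2 fold change 3.43, SE 1.05, edgeR FDR = 0.74). PHEX overlapped, at 2.05 to 28.3 against 0.578 to 5.18 normalized CPM.

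Across 14329 genes, the edgeR test of the tumors of dogs F, E and D against those of dogs G, B and A called 0 (0%), with 725 genes at an unadjusted p under 0.05 (5.06%) and 0.196 as the smallest FDR, while DESeq2 called 58. The number at an unadjusted p under 0.05 was 421 without dog D, 475 without dog G, 1276 without dog B and 1452 without dog E. Of all tested genes, 825 (5.76%) were higher and 607 (4.24%) lower without overlap. PTX3 and LEPR, chosen after their values were seen, are examples from the higher side. In the tumors PTX3, the gene of the soluble pattern recognition protein pentraxin 3, was at 231, 399 and 348 normalized CPM in dogs F, E and D, at 270 in dog C and at 71.1, 42.9 and 56.5 in dogs G, B and A (log2 fold change 2.52, SE 0.38, edgeR FDR = 0.74). For the leptin receptor gene LEPR the tumors held 18.5 to 75.0 against 2.08 to 3.84. In bone, PTX3 and LEPR overlapped between the groups, with log2 fold changes of 0.07 (SE 0.32) and 0.80 (SE 0.48).

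**Figure D5:**
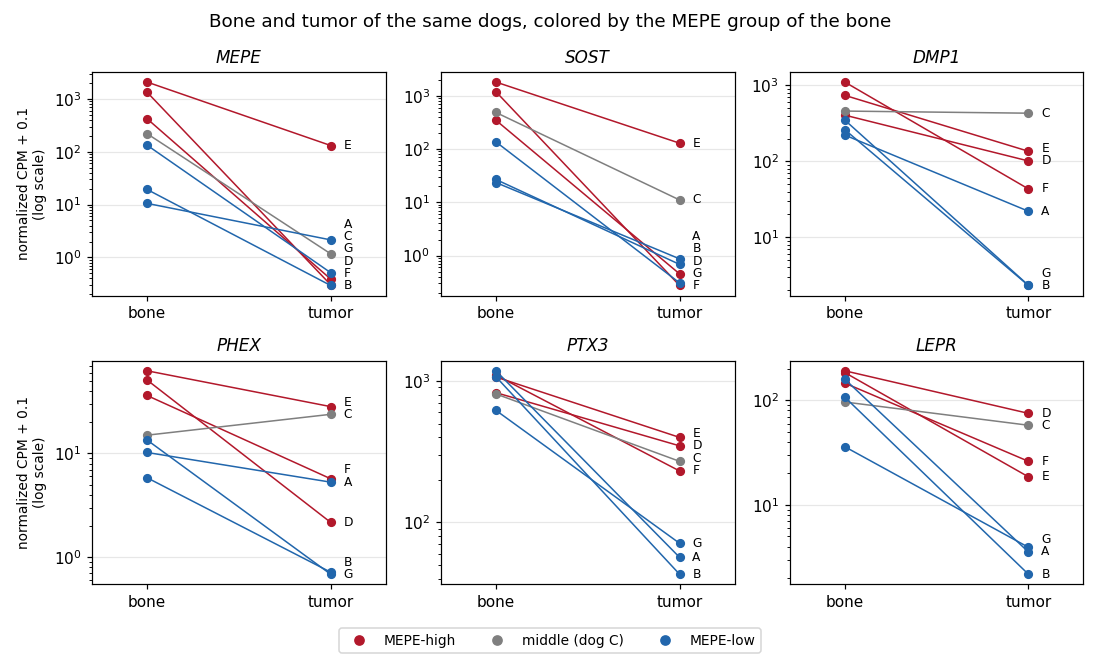
Lines join the bone and the tumor of each dog, colored by the MEPE group of the bone, with normalized CPM plus 0.1 on a log axis; letters name the dogs beside the tumor values. In tumor, dog E stands alone for MEPE, and for DMP1, PTX3 and LEPR the tumors of dogs F, E and D all lie above those of dogs G, B and A, while for PHEX they overlap.

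Whether the 2 groups of dogs differed in another way in bone than in tumor was tested with the dog as a block. Of 14460 genes, edgeR called 0 (0%), with 387 at an unadjusted p under 0.05 (2.68%), and DESeq2 called 23. By edgeR, the number at an unadjusted p under 0.05 was 226 without dog D, 616 without dog B and 810 without dog E. Without the dog as a block, 0 genes were called and 380 had an unadjusted p under 0.05. For SOST, DMP1 and PHEX, the log2 fold change of MEPE-high over MEPE-low dogs in bone minus that in tumor, fitted within dogs, was 2.79, -2.95 and -0.06 (SE 2.72, 1.31 and 1.14, none with an unadjusted p under 0.05). The separate fits of SOST gave log2 fold changes of 4.16 in bone and 6.40 in tumor (SE 2.50), where dog E held most of its transcripts, so the sign of its difference depended on the fit and no direction is read from it. For CYTL1, which held at most 0.166 normalized CPM in any tumor, it was -6.76 (SE 1.82, edgeR), which did not pass the FDR.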

How the data were processed

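RNA of the bone and tumor of 7 dogs was extracted by different methods for the 2 tissues, and poly-A libraries were sequenced as paired reads. Per the labels, the authors used Trimmomatic 0.39, HISAT2 2.2.1 and StringTie 1.3.3 on CanFam3.1. The deposited values are raw counts per Ensembl gene in 14 columns, each matched by name to its library, and 0 other value columns were present. Strand and multi-mapping settings are not given in the sources used here, so genes with near-identical copies or antisense partners are uncertain. Symbols were paired with 2292 of 30951 identifiers, 2052 of them among the genes tested in bone, through supplementary tables that list mainly genes differing between bone and tumor. Coordinates and sequences were not used here.

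Groups came from CPM by column totals. Tests used edgeR 4.0.16 (R 4.3.3; TMM, quasi-likelihood, Benjamini-Hochberg FDR) on genes with a mean of at least 1 CPM in the tissue, without MEPE in bone and in the test between tissues. DESeq2 1.42.0 and limma 3.58.1 were alternatives, together with other normalizations, filters, MEPE as a number, all 12 libraries and the omission of each dog. Tests were checked on simulated counts. The permutation test used scipy 1.17.1. The dog was a block in the test between tissues because bone and tumor came from the same animal. Over 14461 genes, the deviations of bone and tumor from their tissue means correlated within dogs at 0.0886 to 0.207 (median 0.121). Each dog gave 1 library per tissue, so p-values reflect biological and technical spread together, and they take the grouping by MEPE as given. Standard errors were computed from the log2 fold change and the F statistic of each edgeR test.

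The bone groups, gene lists and alternatives were chosen with earlier results of these data known. Named were the paired osteocyte and mineral genes, the 5 genes with a symbol and the smallest p in each direction since fewer than 5 were called, 6 genes most and 4 least like MEPE, the 3 most abundant of other lists, TBX5 and PITX1. All other genes were picked after their values were seen, including BUB1B, ADM, CD5L, COL9A1, SCN7A, MBP, FOSB, EGR3 and IER2. A few genes are not reported here and are left out of the list counts.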

Additional observations from a re-analysis of the deposited data

Results flagged for a closer look

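In 98 groups of 7 values, for the genes given by name, Dixon's criterion asks whether the most extreme library lies apart from the remainder, and it did so in 24 groups. Its rate of about 1 in 20 holds for independent, normally distributed values. These levels were not put on a log scale, and some of the genes were picked after their values were seen. The 24 groups are therefore a description and are not set against that rate. Each value is in normalized CPM.

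The bone of dog E stood apart for 11 genes. They were NPY (89.8, others at most 38.4), BGLAP (2466, at most 866), SLC20A2 (195, at most 79.0), FOLH1B (43.2, at most 19.8), SPATA13 (119, at most 68.9), RPGRIP1L (7.06, at most 3.81), CHAD (5237, at most 1772), the collagen hydroxylase gene P4HA1 (197, at most 95.5), the replication gene MCM2 (30.8, at most 21.4), ENSCAFG00000017018 (465940, at most 113830) and ENSCAFG00000002069 (177570, at most 38900). All 11 were above the other bones, and dog E has the TMM factor of 0.632 that raises its values.

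The bone of dog A was apart for the osteoclast genes MMP9 (9171), CTSK (4042) and ACP5 (4870). Dog D was apart in bone for LPL (535) and RELN (86.4), dog F for BMP3 (51.9), dog B for PITX1 (1.82), and dog C for CLEC3A (75.6) and for MYOC (477), a gene of the eye and of tendon-like tissue.

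In tumor, dog E was apart for MEPE (131) and SOST (129), dog C for DMP1 (431), and dog D for BMP3 (6.39, others at most 2.65).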

How the results depend on the processing

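In bone, 0 genes were called by edgeR, with DESeq2-type size factors, without a filter, with filterByExpr, by limma-voom and with all 12 libraries. Other settings called few: 57 with the DESeq2 Wald test, 3 with library totals only, all lower and CYTL1 among them, and 2 with MEPE as a numeric term over all 7 bones. With each dog left out the number of calls was 0 to 2, 1 without dog B and 2 without dog D, and the causes were not tested. Genes higher without overlap were 605 with TMM and 115 with library totals only. In tumor the DESeq2 Wald test called 58 and the fit without a filter 1, and in the test between tissues DESeq2 called 23, while each dog left out gave 0 in both. Without the replicate block of the dog, 0 genes were called between tissues, as with it. For 12 named genes over 14 alternatives each, 168 values in all, the direction was kept in every one. Of these values 12 had an FDR under 0.05, 11 of them with DESeq2 and 1, for CYTL1, with library totals only. The log2 fold changes with each library left out were 3.65 to 5.48 for SOST, 1.04 to 1.73 for DMP1, 1.85 to 2.81 for BMP3, -2.53 to -1.89 for ASS1 and -2.68 to -2.38 for ENSCAFG00000017646. The difference in library totals was 1074146 counts outside the 10 most abundant genes (exact permutation test, p = 0.7). Dog C lay with the MEPE-low bones for 131 of 182 lower genes, and for 106 of 158 with library totals only. Depth limits what can be said of genes with few counts, such as PITX1 and FGF23, and genes without a symbol are not described.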
